A study of Mus musculus with 9 samples.

Results

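Cholesterol genes were examined in fetal ovaries before and after grafting into male mice. The genes were 33 that make, import, move, store or export cholesterol or regulate these steps, chosen by gene name: 18 synthesis enzymes, 9 genes of uptake, transport, storage and efflux, and 6 regulators. For each gene, the value was that of the probe set (a group of short probes for 1 transcript) that is annotated to this gene alone and has the highest mean over the arrays. In all, 31 of the 33 genes were measured in this way, of 18194 genes with such a probe set, and Acat2 and Soat1 were not analysed here. The samples were XX ovaries of E13.0 embryos whose mothers had been treated with busulfan, which depletes germ cells, and all groups shared it. They were analysed before transplantation (day 0, 2 arrays) or as grafts recovered from under the kidney capsule of male (XY) nude mice of 8 weeks on days 4, 7 and 15 post-transplantation (1 array each) and days 10 and 20 (2 arrays each). The labels give the strain as ICR and the study's methods name C57BL/6 and ICR females. Each sample held approximately 10 grafts, and which litters and hosts went into a pool is not stated. The p-values below therefore cover the variation between pools, part of which may be technical. As no ungrafted ovary of a later age and no graft from a female host was among these arrays, age, grafting and the male host cannot be told apart.

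Cells make cholesterol from acetyl-CoA through mevalonate, squalene and lanosterol. When sterols in the endoplasmic reticulum are low, SCAP carries the SREBP factors (from Srebf1 and Srebf2) to the Golgi for cleavage, and the cleaved factors switch on the synthesis enzymes. INSIG proteins hold SCAP back when sterols are high, and oxysterols activate LXR-alpha (from Nr1h3), whose targets include the exporters Abca1 and Abcg1 and the lipoprotein component Apoe. In the ovary, cholesterol is the precursor of all steroid hormones and arrives mainly with lipoproteins. Macrophages clear the cholesterol of dead cells and use the same exporters.

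The promoters of these genes have shared elements, which are given here because most synthesis enzymes have them. RefSeq windows of 250 bases before the start (assembly GRCm38.p6) were at hand for 26 of the 33 genes, including both genes without an array value, and were searched on both strands. The CCAAT box (CCAAT, bound by NF-Y, which cooperates with SREBP) lay in the windows of 14 of 15 synthesis enzymes, 3 of 5 genes of uptake, transport, storage and efflux and 4 of 6 regulators. It lay in those of 39.7% of the 13273 protein-coding genes of the arrays with a window. The GC box (GGGCGG) also lay in those of 14 of 15 synthesis enzymes, against 55.4% of the protein-coding genes. It lay in those of 2 of 5 genes of uptake, transport, storage and efflux and 5 of 6 regulators. The sterol regulatory element in the form TCACCCCAC lay in the window of Hmgcs1 alone among the 26, against 0.633% of the protein-coding genes. The looser form TCACNCCAC, which includes the first, had no other match among the 26. Below, the last 150 bases before the start are given 5′ to 3′ on the strand of the gene, with CCAAT (or ATTGG, its reverse complement) and the sterol regulatory element in capitals. Hmgcs1 has both marked elements, Mvk and Mvd hold several CCAAT boxes, and Abca1, an exporter that was higher in the grafts, holds neither. Other genes that lay above both day 0 arrays on all grafts do hold CCAAT boxes (Hsd17b7, Sc5d, Lipa and Insig2). Apoe and Scap, also above, hold none, and Abcg1 and Scarb1 had no window.
Hmgcs1, chr13:119690201-119690350, plus strand: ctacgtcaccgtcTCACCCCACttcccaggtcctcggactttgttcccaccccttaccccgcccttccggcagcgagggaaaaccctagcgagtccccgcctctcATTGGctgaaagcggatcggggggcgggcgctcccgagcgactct
Mvk, chr5:114444119-114444268, plus strand: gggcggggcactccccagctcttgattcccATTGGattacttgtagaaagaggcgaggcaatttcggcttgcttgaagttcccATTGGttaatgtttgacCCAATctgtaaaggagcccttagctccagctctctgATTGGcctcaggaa
Mvd, chr8:122443423-122443572, minus strand: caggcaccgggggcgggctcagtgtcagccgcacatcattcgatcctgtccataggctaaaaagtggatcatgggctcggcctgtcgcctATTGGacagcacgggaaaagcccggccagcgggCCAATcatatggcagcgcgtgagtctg
Abca1, chr4:53159896-53160045, minus strand: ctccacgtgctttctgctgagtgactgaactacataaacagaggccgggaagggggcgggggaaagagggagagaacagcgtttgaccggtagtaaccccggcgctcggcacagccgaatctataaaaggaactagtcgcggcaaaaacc
A match is a description of these letters and was not tested as a binding site.

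The arrays were Affymetrix mouse genome chips, and the deposited values are log2 intensities with array medians of 6.49 to 6.63. A level of 1 probe set cannot be set against that of another, so that all comparisons are within a gene. For 4 of the 31 genes (Hmgcs1, Fdft1, Hsd17b7 and Scarb1), the probe set is of the x_at type, whose probes can also match other transcripts. Those of Mvd, Lss and Lipa are of the s_at type, whose probes can likewise match several transcripts. Foxl2, a factor of ovarian supporting cells, lay between 11.44 and 12.98 on all arrays. In contrast, 6 of 8 ovarian somatic markers were called lower on day 20, as were 3.10% of all probe sets. The kidney proximal tubule genes stood out on the replicate 1 array of day 20, where their median was 6.07 above the day 0 mean (12 of 12 genes higher than on replicate 2), as against -0.21 on replicate 2. The adipocyte genes had medians of 2.86 and 0.78 on the same arrays. On day 0, all 6 germ cell markers were higher on replicate 2, by a median of 2.21. Over all 45101 probe sets, the difference between duplicates had an SD of 0.45 on day 0, 0.34 on day 10 and 0.70 on day 20. A gene was called changed when limma, fitted to all arrays and all probe sets with a mean for each day, gave a Benjamini-Hochberg adjusted p under 0.05 and a change over 2-fold. Days 4, 7 and 15 had no duplicate, and their arrays were assumed to vary like the others.

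Few cholesterol genes passed this test on any day. On day 4, Apoe was called higher, where 0.774% of all probe sets were called higher and 0.155% lower. On day 20, Apoe and Abca1 were called higher (4.52% of all probe sets) and Pmvk lower (3.10%), that is, 2 and 1 of 31 genes, shares close to the background. None was called on day 7 (background 1.28% higher and 0.386% lower), day 10 (2.87% and 1.33%) or day 15 (2.0% and 0.800%). The share of called genes was therefore not above the background on days 7, 10 and 15. Limma gave an unadjusted p under 0.05 for 8, 10 and 9 of the 31 genes on these days. For no unadjusted count, here or below, was the share of all probe sets computed, so that these counts have no background. Between days 20 and 10, limma called no cholesterol gene, and 1 of the 31 had an unadjusted p under 0.05. In that comparison, 0.00222% of all probe sets were called higher and 0 lower.

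The medians lay on different sides of 0 by role, as the plot of the genes by day shows. Every comparison with day 0 uses the same day 0 arrays. The median log2 change of the 17 measured synthesis enzymes was -0.24 on day 4, -0.29 on day 7, -0.20 on day 10, -0.17 on day 15 and -0.51 on day 20. That of the 8 measured genes of uptake, transport, storage and efflux was 0.66, 0.54, 0.56, 0.30 and 0.84 on the same days. The 6 regulators lay at 0.32, 0.27, 0.30, 0.40 and 0.43, and all probe sets at -0.06, -0.08, -0.09, -0.09 and -0.11. The synthesis median was thus closer to that of all probe sets than the handling genes' median on each day. Taken from the mean of each gene over the arrays of a day, the synthesis median minus the handling median was -0.77 on day 10 and -1.35 on day 20. With the mean of all probe sets of each gene it was -0.48 and -0.86, and with the second probe set, which 20 of the genes have, -0.48 and -0.50. Taken array by array against the day 0 mean, this difference was -0.20 and 0.20 on the day 0 arrays. It was between -1.15 and -0.47 on the 7 graft arrays, which did not overlap with day 0 (pooled SD between duplicates 0.17). The duplicates were furthest apart on day 0, as against -0.68 and -0.70 on day 10 and -1.04 and -1.15 on day 20. The day 15 array, at -0.47, was nearest to day 0. Both values from gene means, -0.77 and -1.35, thus lay beyond those of the 2 arrays of their day.

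**Figure D1:**
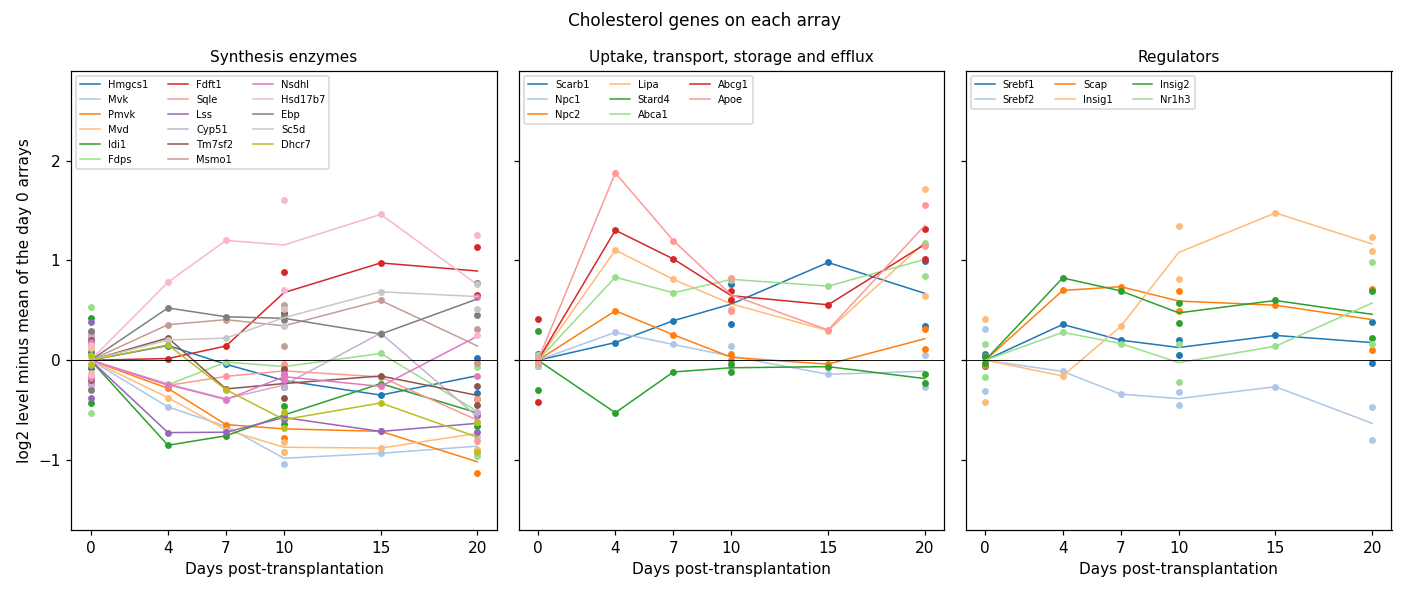
Log2 level of each measured cholesterol gene minus its mean on the day 0 arrays, against days post-transplantation, by role. Points are arrays and lines join the means of each day; 5 of 8 genes of uptake, transport, storage and efflux lie above both day 0 arrays on all grafts, while synthesis enzymes lie on both sides of 0.

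**Figure D2:**
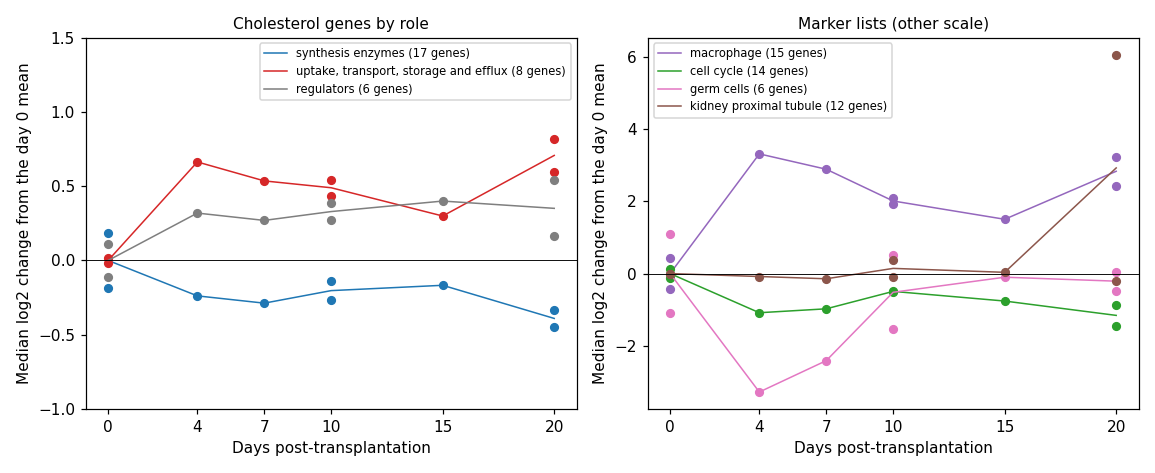
Median log2 change from the day 0 mean for each role (left) and for marker lists on a wider scale (right), each point an array and each line joining the day means of these points. The synthesis and handling medians part on all 7 graft arrays, the macrophage list is above its day 0 values on all grafts, and 1 of the 2 day 20 arrays stands out for kidney genes.

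Without regard to the test, 9 of the 31 genes lay above both day 0 arrays on all 7 grafts, as did 10.3% of all probe sets, and 4 lay below both, as did 19.6%. Of the uptake, transport, storage and efflux genes, 5 of 8 were in the first set (Apoe, Abca1, Abcg1, Lipa and Scarb1) and none in the second. Of the synthesis enzymes, 2 of 17 were above (Hsd17b7 and Sc5d) and 4 of 17 below (Mvk, Pmvk, Mvd and Lss), the latter close to the background share. The regulators Scap and Insig2 were above and none was below. These counts rest on 1 probe set a gene. Of the 13 genes without overlap, 11 have a second probe set, and in a check added after the data were seen, this set was also without overlap for 5 of them (Abca1, Scarb1, Hsd17b7, Mvd and Insig2), that is, for 2 of the 4 such genes of uptake, transport, storage and efflux.

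Among the genes of uptake and efflux, Apoe had the largest change. It encodes apolipoprotein E, which macrophages and steroidogenic cells secrete with cholesterol. Its level was 10.87 and 10.82 on the day 0 arrays, 12.72 on day 4, 12.04 on day 7, 11.33 and 11.66 on day 10, 11.15 on day 15, and 12.40 and 11.99 on day 20. All grafts were above both day 0 arrays, with the day 4 array highest and the day 15 array lowest. Apoe rose by 1.88 on the log2 scale on day 4 (3.67-fold, SE 0.26, limma adjusted p = 0.0487) and by 1.35 on day 20 (2.55-fold, SE 0.21, adjusted p = 0.0201). On day 10 the change was 0.65 (adjusted p = 0.163). Both calls were lost without either day 0 array or either day 10 array, with adjusted p up to 0.218 on day 4 and 0.113 on day 20, and both were kept without either day 20 array. The day 4 call also ended with quantile normalization, and those of day 20 for all 3 genes ended when only the arrays of days 0 and 20 were fitted.

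Macrophage markers moved with Apoe. The median of 15 macrophage genes was above its day 0 mean by 3.32 on day 4, 2.89 on day 7, 1.93 and 2.09 on day 10, 1.505 on day 15, and 3.24 and 2.43 on day 20, as against -0.43 and 0.43 on the day 0 arrays. The 7 graft arrays stood in the same order for this median, for Apoe and for Npc2, a lysosomal carrier of cholesterol. For Lipa, Abca1 and Abcg1, the other handling genes ranked in this way, they stood in other orders. Of the 15 macrophage genes, 7 were called higher on day 4, 6 on day 7, 10 on day 10, 3 on day 15 and 14 on day 20. On the same days, 0.774%, 1.28%, 2.87%, 2.0% and 4.52% of all probe sets were called higher. The macrophage gene Lyz2 lay at 8.35 and 8.44 on day 0 and between 11.98 and 14.12 in the grafts. The part of macrophages in the Apoe values was not tested, and in such bulk samples, more cells of a type and more RNA per cell cannot be told apart.

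Npc2 itself lay at 12.76 and 12.75 on day 0 and between 12.72 and 13.25 in the grafts, which overlapped with day 0. Another of its 4 probe sets gave 6.60 and 6.81 on day 0 and 7.41 to 7.94 in the grafts, without overlap, and changed by 1.23 on day 20 as against 0.22 for the set used. The other 2 sets changed by 0.175 and -0.27, so that the larger change of Npc2 was seen with 1 of its 4 probe sets. Npc1, the membrane partner of Npc2 in lysosomal export, lay at 9.17 and 9.06 on day 0 and between 8.84 and 9.39 in the grafts, on both sides of day 0.

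Abca1 encodes the exporter that loads cholesterol onto lipid-poor apolipoproteins. Its level was 11.10 and 11.004 on day 0, 11.88 on day 4, 11.73 on day 7, 11.86 and 11.86 on day 10, 11.79 on day 15, and 11.90 and 12.23 on day 20. All grafts were above day 0 and, except for replicate 2 of day 20, lay in the narrow range of 11.73 to 11.90. Abca1 rose by 1.01 on day 20 (2.01-fold, SE 0.17, adjusted p = 0.0257), just past the fold threshold, and the change on day 10 was 0.81 (adjusted p = 0.0660). The day 20 call ended without replicate 2 of that day (change 0.84) and without any 1 of the day 0 or day 10 arrays (adjusted p up to 0.138), and was kept without replicate 1 (1.17), the array with the kidney signal. Its 2 other probe sets changed by 0.67 and 0.35 on day 20.

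Abcg1, which exports cholesterol to mature HDL, lay at 7.65 and 8.48 on day 0, 9.37 on day 4, 9.08 on day 7, 8.67 and 8.76 on day 10, 8.62 on day 15, and 9.08 and 9.38 on day 20. The grafts were above day 0, but the day 0 arrays differed by 0.83 and the change of 1.16 on day 20 did not pass (95% interval 0.42 to 1.90, adjusted p = 0.0709). The other probe set of Abcg1 overlapped with day 0 and changed by -0.19 on day 10 and 0.39 on day 20, so that the direction on day 10 turned. Lipa, the lysosomal acid lipase that frees cholesterol from its esters, lay at 9.90 and 9.84 on day 0, 10.97 on day 4, 10.68 on day 7, 10.49 and 10.38 on day 10, 10.16 on day 15, and 11.58 and 10.51 on day 20. The highest value of Lipa was on the day 20 array with the kidney signal, and its change on day 20 was 1.18 (95% interval 0.31 to 2.05, adjusted p = 0.0976), as against 1.06 and 1.76 for its 2 other probe sets. Scarb1, the HDL receptor of steroidogenic cells, lay at 9.95 and 10.07 on day 0 and between 10.19 and 11.01 in the grafts, with the highest values on day 15 and on replicate 2 of day 20 and a day 20 change of 0.67 (adjusted p = 0.186). Its second probe set changed by 0.45 on day 20, while the third overlapped with day 0 and changed by 0.02 on day 10 and -0.13 on day 20, so that the direction of Scarb1 on day 20 depends on the probe set. Stard4, a cytosolic sterol carrier, lay at 8.56 and 9.15 on day 0 and between 8.33 and 8.82 in the grafts, so that the groups overlapped.

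**Figure D3:**
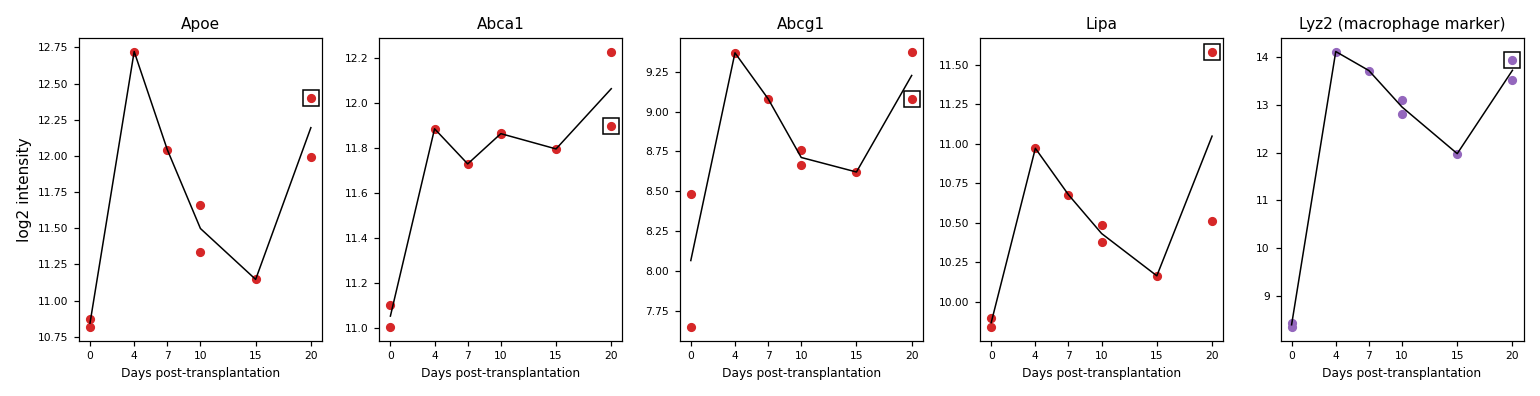
Log2 intensity of Apoe, Abca1, Abcg1, Lipa and the macrophage gene Lyz2 on each array against days post-transplantation, each panel with its own scale that does not start at 0. Points are arrays, lines join the day means, and squares mark the day 20 array with the kidney signal; all grafts lie above both day 0 arrays in the 5 panels.

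Of the enzymes of the mevalonate pathway, Mvk, Pmvk and Mvd lay below both day 0 arrays on all grafts. Pmvk, the phosphomevalonate kinase, lay at 8.94 and 9.31 on day 0, 8.84 on day 4, 8.48 on day 7, 8.53 and 8.34 on day 10, 8.41 on day 15, and 7.99 and 8.22 on day 20. All grafts were below day 0, with the day 20 arrays lowest. Pmvk fell by 1.02 on the log2 scale on day 20 (2.02-fold, SE 0.20, limma adjusted p = 0.0363). This call was lost without replicate 1 of day 20, the array with the kidney signal, where Pmvk was lowest. It was also lost without any 1 of the day 0 or day 10 arrays. Under the other settings, the day 20 change of Pmvk was between -1.20 and -0.83.

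Mvk, the kinase of the step before, lay at 8.18 and 8.50 on day 0, 7.87 on day 4, 7.67 on day 7, 7.30 and 7.41 on day 10, 7.40 on day 15, and 7.57 and 7.38 on day 20. The grafts did not overlap with day 0. The change of Mvk was -0.98 on day 10 (95% interval -1.44 to -0.53, adjusted p = 0.0462) and -0.86 on day 20 (-1.31 to -0.41, adjusted p = 0.0446), short of 2-fold on both days, and its second probe set changed by -0.35 and -0.61. Mvd, the decarboxylase that follows Pmvk, lay at 8.10 and 8.35 on day 0 and between 7.30 and 7.85 in the grafts, also without overlap (day 10 change -0.87, adjusted p = 0.0694). Both probe sets of Mvd gave like values, the other changing by -0.82 on day 10 and -0.74 on day 20. The first enzyme of the branch, Hmgcs1, which holds the sterol regulatory element printed above, lay at 12.39 and 12.55 on day 0 and between 12.12 and 12.62 in the grafts, with a day 20 change of -0.15 (95% interval -0.62 to 0.31). It overlapped with day 0 and had the smallest range over the 9 arrays of the synthesis enzymes, 0.50.

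The isoprenoid and squalene steps held values on both sides. Idi1, the isomerase of isopentenyl diphosphate, lay at 9.39 and 10.25 on day 0 and between 8.97 and 9.59 in the grafts. Fdps, which makes farnesyl diphosphate, lay at 9.37 and 10.44 on day 0 and between 8.94 and 9.97 in the grafts. Both had day 0 arrays more than 0.85 apart, so that the grafts lay mostly between them or below the lower one. Fdft1, squalene synthase, lay at 9.89 and 10.37 on day 0, 10.14 on day 4, 10.27 on day 7, 10.60 and 11.01 on day 10, 11.10 on day 15, and 10.77 and 11.26 on day 20. From day 10 on, Fdft1 was above both day 0 arrays, with a day 20 change of 0.89 (95% interval 0.21 to 1.58, adjusted p = 0.108), whereas its 3 other probe sets changed by 0.35, -0.39 and -0.37. Sqle, squalene epoxidase, lay at 9.82 and 10.39 on day 0 and between 9.30 and 10.07 in the grafts. Lss, which closes the ring to lanosterol, lay at 7.55 and 8.31 on day 0 and in the narrow range of 7.20 to 7.38 on all 7 grafts, below both day 0 arrays. Its day 20 change was -0.63 (adjusted p = 0.210), and its 2 other probe sets changed by -0.29 and -0.40.

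The enzymes from lanosterol to cholesterol did not pass the test on any day. Hsd17b7, a ketoreductase that acts in the demethylation of the sterol ring, lay at 9.02 and 9.32 on day 0, 9.95 on day 4, 10.37 on day 7, 10.78 and 9.87 on day 10, 10.63 on day 15, and 9.42 and 10.43 on day 20. All grafts were above day 0, but both duplicate pairs of grafts were about as far apart as the change itself, which was 0.76 on day 20 (95% interval -0.32 to 1.84). Its other probe sets changed by 0.61, 0.35 and -0.38 on day 20. Sc5d, the lathosterol desaturase, lay at 8.09 and 8.15 on day 0 and between 8.32 and 8.88 in the grafts, without overlap (day 20 change 0.64, adjusted p = 0.0763). The other 2 probe sets of Sc5d overlapped with day 0 and changed by -0.08 and 0.08 on day 20. Dhcr7, which makes cholesterol from 7-dehydrocholesterol, lay at 9.40 and 9.50 on day 0, 9.60 on day 4, 9.15 on day 7, 8.93 and 8.77 on day 10, 9.02 on day 15, and 8.53 and 8.83 on day 20. Apart from day 4, the grafts were below day 0 (day 20 change -0.77, adjusted p = 0.0530).

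For Cyp51, the lanosterol demethylase, the day 20 change was -0.57 (adjusted p = 0.147). Values for Tm7sf2, a sterol reductase, Msmo1, the methyl sterol oxidase, and Nsdhl, which acts with it, were -0.35, 0.14 and 0.24, and Ebp, the sterol isomerase, had 0.61 (adjusted p = 0.180). Intervals for Tm7sf2, Msmo1 and Nsdhl included 0, and those of Cyp51 and Ebp did not. Nsdhl was highest, at 10.10, on the day 20 array with the kidney signal, against 9.31 on the other.

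**Figure D4:**
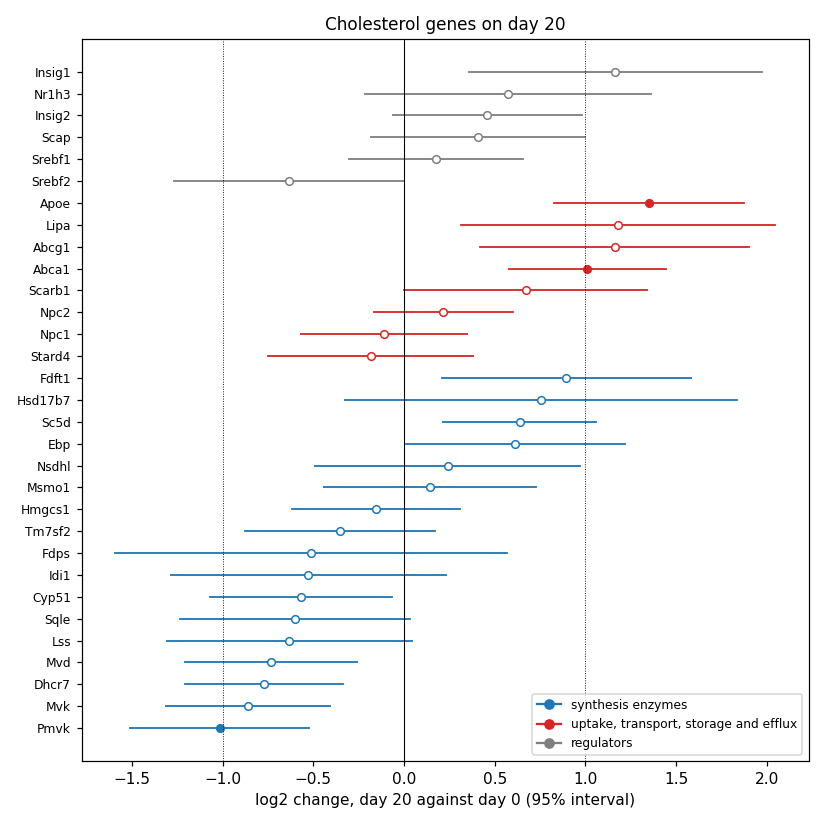
Log2 change on day 20 against day 0 for the 31 measured cholesterol genes, with 95% intervals from limma (not adjusted for the number of genes). Filled circles passed the test (Apoe and Abca1 higher, Pmvk lower), open circles did not, and dotted lines mark a 2-fold change.

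Of the regulators, Insig1 had the largest change. This sterol sensor, itself switched on by SREBP, lay at 8.34 and 9.17 on day 0, 8.59 on day 4, 9.09 on day 7, 9.57 and 10.09 on day 10, 10.23 on day 15, and 9.84 and 9.99 on day 20. The arrays of days 4 and 7 lay between the day 0 arrays, and those from day 10 on lay above both. As the day 0 arrays differed by 0.83, the changes of 1.08 on day 10 (adjusted p = 0.142), 1.48 on day 15 (adjusted p = 0.138) and 1.16 on day 20 (adjusted p = 0.0859) did not pass. Insig2, its homologue, lay at 8.99 and 9.05 on day 0 and between 9.24 and 9.84 in the grafts, highest on day 4.

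Scap, the escort of SREBP, lay at 10.43 and 10.52 on day 0 and between 10.58 and 11.21 in the grafts. Srebf2, the SREBP gene most tied to cholesterol synthesis, lay at 8.57 and 9.19 on day 0 and between 8.08 and 8.77 in the grafts, with 5 of 7 below both day 0 arrays and a day 20 change of -0.63 (95% interval -1.27 to 0.00, adjusted p = 0.188). Srebf1, more tied to fatty acid synthesis, lay at 9.39 and 9.51 on day 0 and between 9.43 and 9.83 in the grafts. Nr1h3 lay at 5.89 and 6.22 on day 0 and between 5.84 and 7.03 in the grafts, with the highest value on replicate 1 of day 20. The grafts overlapped with day 0 for the last 3 genes.

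The duplicate arrays of day 0 differed in a way that touches these comparisons. All 17 synthesis enzymes and all 6 regulators were higher on replicate 2 of day 0 than on replicate 1, by medians of 0.37 and 0.23, as were 56.1% of all probe sets, with a median of 0.04. The gap reached 1.07 for Fdps and 0.85 for Idi1, and only 3 of 8 genes of uptake, transport, storage and efflux were higher. Germ cell and cell cycle genes were also higher on this array, 6 of 6 and 13 of 14, and so were 13 of 15 macrophage genes. Their part in the synthesis values was not tested. On days 10 and 20, replicate 2 was higher for 4 and 10 of the 17 enzymes.

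**Figure D5:**
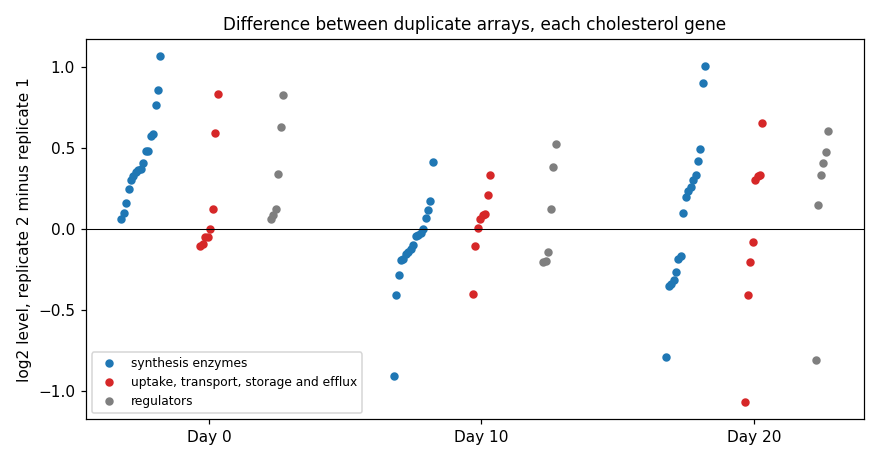
Log2 level on replicate 2 minus replicate 1 for each of the 31 measured cholesterol genes on days 0, 10 and 20, by role. On day 0 all synthesis enzymes and regulators lie above 0, and on days 10 and 20 they lie on both sides.

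Other genes of the same pathways were taken from a list of 63, of which 54 were measured. None of 7 further synthesis genes and none of 15 further regulators or lipid synthesis genes was called by limma against day 0 on any day, and at most 2 and 3 of them had an unadjusted p under 0.05. Of 5 further uptake genes, 1 was called higher on day 4 and 2 each on days 7, 10, 15 and 20. The shares of all probe sets called higher were 0.774%, 1.28%, 2.87%, 2.0% and 4.52% on these days. Vldlr, the VLDL receptor, lay at 7.99 and 7.89 on day 0, 10.21 on day 4, 11.28 on day 7, 11.21 and 11.18 on day 10, 10.95 on day 15, and 11.21 and 11.14 on day 20. All grafts were above day 0, the day 4 array least so. Vldlr rose by 3.26 on day 10 (SE 0.15, adjusted p = 0.00197) and 3.24 on day 20 (adjusted p = 0.00123), and passed under all 20 other settings on both days. Lrp1, a broad lipoprotein receptor, rose by 1.07 on day 10, a call lost without either array of day 0 or of day 10 and with its second probe set (0.36). Cd36, a scavenger receptor, rose by 2.68 on day 20 (adjusted p = 0.0435), where its level was 10.74 on the array with the kidney signal and 9.09 on the other, and it was not called without the former or without any 1 of the day 0 or day 10 arrays.

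Of 27 further transport, storage and efflux genes, 5 were called higher and 2 lower on day 10, and as many on day 20. On day 15, 2 were called higher and 1 lower. Of all probe sets, 2.87% were called higher and 1.33% lower on day 10, 4.52% and 3.10% on day 20, and 2.0% and 0.800% on day 15. Limma called none of the 27 on day 4 (background 0.774% higher and 0.155% lower) or day 7 (1.28% and 0.386%). On each of these days, 8 of the 27 had an unadjusted p under 0.05. Star, which carries cholesterol into mitochondria for steroid synthesis, lay at 6.02 and 5.35 on day 0, 7.48 and 8.06 on day 10, and 8.59 and 8.22 on day 20, without overlap. It rose by 2.08 on day 10 (adjusted p = 0.0275, lost without either array of day 0 or of day 10) and 2.72 on day 20 (adjusted p = 0.00914, lost without replicate 2 of day 0). With the second probe set of Star, the changes were 0.12 and 0.54, and neither was called. Nceh1, a cholesteryl ester hydrolase of macrophages and other cells, rose by 2.75 on day 20 (adjusted p = 0.00760), with 10.06 on the array with the kidney signal and 9.21 on the other, a call lost without either day 0 array. Scarb2, a lysosomal membrane protein, rose by 1.54 and 1.74, and Gramd1b, which moves sterol from the plasma membrane to the endoplasmic reticulum, rose by 1.10 and 1.74 on days 10 and 20. With the second probe sets, Scarb2 was called on both days (1.35 and 1.70), while Gramd1b changed by 0.06 and 0.47 and was called on neither. The day 20 calls of both, from the sets used, were kept without any 1 array, and the day 10 calls were lost without either array of day 0 or of day 10.

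Against this direction, Apoc1, whose gene lies next to Apoe, lay at 11.40 and 11.05 on day 0, 10.71 on day 4, 9.73 on day 7, 8.81 and 8.63 on day 10, 8.39 on day 15, and 8.65 and 8.96 on day 20. All grafts were below day 0, and Apoc1 fell by 2.50 on day 10 (adjusted p = 0.00580) and 2.41 on day 20 (adjusted p = 0.00407), the first call being lost without either day 10 array. The apolipoprotein genes Apoe and Apoc1 thus had opposite directions in the grafts. Abcg5, from the same list of transport, storage and efflux genes, was the other gene called lower on days 10 and 20. It lay at 5.47 and 5.41 on day 0 and between 3.71 and 4.60 in the grafts, all under the 25th percentile of all values (4.82). Its call was kept in 9 of 18 other settings on day 10 and 12 of 18 on day 20. Hepatocyte genes were also lower in part, with 3 of 7 called lower on day 20 (3.10% of all probe sets). Their part in the Apoc1 values was not tested.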

How the data were processed

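Total RNA of the 9 samples was labelled with biotin with either of 2 kits and hybridised to Affymetrix mouse arrays. The labels do not say which array had which kit, so that kit could not be used as a batch and may coincide with day. The deposited log2 intensities were made by the authors with the RMA algorithm, which corrects background, quantile-normalizes arrays and summarises probes, with no version given for it in these sources. The summary step can return the same value on several arrays, as it did for 4 of the 31 measured genes (Fdps, Stard4, Srebf1 and Nr1h3), and for Fdps both day 10 values were equal. No call of signal over background comes with these values, so that low values cannot be told from background. Precision rests on how many arrays there are and on their spread.

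All 45101 probe sets, including 64 control sets, were fitted with limma 3.58.1 in R 4.3.3 (3 residual and 2.69 prior degrees of freedom). GEO's platform annotation gave 34958 probe sets 1 gene symbol, 932 several and 9211 none. The 31 measured genes had 68 probe sets, and 20 genes had more than 1. The named genes were the 33 cholesterol genes, some of the other pathway genes that were called (at most 8 per comparison) and up to 3 markers per list. The genes and lists were chosen with earlier results of these data known. The steps were tested on simulated data. Promoters were searched with Python 3.11.15, pandas 2.3.3 and numpy 2.4.6, and plots drawn with matplotlib 3.10.9. Steroidogenic, erythroid, hepatocyte and adipocyte lists were also measured. Of these, 4 of 6, 0 of 9, 0 of 7 and 1 of 6 genes were called higher on day 20, and 1, 7, 3 and 0 lower. Among all probe sets, 4.52% were called higher and 3.10% lower on that day.

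Alternatives were an intensity trend, array weights, quantile normalization, centring, a filter and a floor (4.82, the 25th percentile) on low values, only the days compared, a replicate block, other thresholds, other probe sets, 1 probe set per gene and single arrays left out.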

Additional observations from a re-analysis of the deposited data

How the results depend on the processing

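Neither the gene results followed here nor the synthesis median minus the handling median on days 10 and 20 turned direction under the alternatives run. A gene was followed in a comparison only where it was called, in the main fit or under an alternative. Turns of other genes are therefore not counted, such as that of Abcg1 on day 10 with its second probe set (0.65 and -0.19). For single genes, a call was lost in 110 of the 661 gene results under the alternatives and gained in 19. The 661 include results without a call in the main fit, which had none to lose. The call of Apoe was kept in 11 of 18 other settings on day 4 and 13 of 19 on day 20. On day 20, that of Pmvk was kept in 10 of 19 and that of Abca1 in 10 of 20. The number of cholesterol genes called on day 4 was 1, and it was 0 with quantile normalization, with low values raised to the 25th percentile and with only the arrays of the days compared, and 2 at an adjusted p under 0.3, the false discovery rate used by the study for its gene ontology lists. It was also 0 with the second probe set, which Apoe does not have, so that this says nothing of its call. On day 7 it was 0, and 1 at that threshold. On day 10 it was 0, and 1 (Mvk) with quantile normalization, with arrays centred on their medians, without a fold threshold and with a 1.5-fold threshold, and 2 at an adjusted p under 0.3. On day 15 it was 0, and 2 at that threshold. On day 20 it was 3, and it was 0 with the raised low values and with only the arrays compared, and 6 at an adjusted p under 0.3. With the second probe set it was 0 of 20 genes, among which Apoe and Pmvk, with 1 probe set each, could not be tested and Abca1 was not called. Leaving out single arrays gave 0 to 1 on day 4, 0 to 3 on day 20, and 0 to 1 for day 20 against day 10, where Lipa was called without replicate 2 of day 20. The cause of these changes was not tested. The shares of all probe sets called under these alternatives are not given here, so that these counts have no background.

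The synthesis median minus the handling median was -0.48 on day 10 and -0.50 on day 20 with the second probe set, -0.48 and -0.86 with the mean of all probe sets, and -0.80 to -0.59 and -1.48 to -0.95 without single arrays. The deviations of same-numbered arrays correlated at -0.16 (days 0 and 10), 0.15 (days 0 and 20) and -0.13 (days 10 and 20), so that the numbers were not taken to pair the samples. With the replicate block, 0 genes were called on day 10, 2 on day 20 (Apoe and Abca1, while Pmvk had an adjusted p of 0.058) and 0 between these days. With 3 residual degrees of freedom, a p over the threshold does not show equal levels. Precision is limited by the number of arrays.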
